A study of Mus musculus with 2 samples.

Results

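The genes described here encode the proteasome: the subunits of its core, the subunits of the cap that sits on the core, the activators and the inhibitor that bind the core in place of the cap, and the chaperones that put core and cap together. They were taken by symbol, as every gene whose name starts with Psma to Psmg and a number, together with Pomp, leaving out Psmb8 and Psmb9, which gave 49 of the 27998 genes in the gene files. One of the 49, Psmc3ip, matches the name but encodes a factor of meiotic recombination, so it was counted as a member by name and left out of every sum over proteasome genes. The other 48 were divided into 17 core genes, 17 cap genes, 8 assembly genes and 6 activator and inhibitor genes. Sem1 (listed as Shfm1), a small lid subunit of the cap, does not match the symbol rule and is in none of these groups. RNA was counted in single cells by droplet sequencing (10x Genomics) of brain cells of adult wild-type C57BL/6J mice, sorted by flow cytometry as live CD11b+/CD45+ cells, a gate that takes microglia and other myeloid cells. CD is 1 library of 609 cells pooled from 4 mice given control diet for 19 days. Repop D5 is 1 library of 585 cells pooled from 6 mice that received PLX5622, which inhibits the receptor Csf1r and so depletes microglia, for 14 days, followed by 5 days back on control diet.

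The proteasome is the main machine for selective protein breakdown in the cytosol and nucleus. Proteins marked with ubiquitin chains are held by receptors on the cap, stripped of ubiquitin by a deubiquitinase of the lid, unfolded by a ring of ATPases at the base and threaded into the barrel of the core, whose inner beta rings carry the cutting sites and whose outer alpha rings form the gate. Immune cells can replace the catalytic beta subunits by inducible ones, Psmb8, Psmb9 and Psmb10, which changes the peptides made for MHC class I. Dividing cells also need the proteasome to remove cyclins and other cell cycle proteins, and transcription of its genes is known to be driven by Nfe2l1 through antioxidant response elements and by NF-Y through CCAAT boxes.

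The promoters of 4 members are shown to let a reader see what the control regions of members that differ in these data look like: Psmb5 and Psmb6, catalytic core genes with an antioxidant response element, Psmd14, the cap gene with the largest ratio over every retained cell at full depth, and Psmb10, the core gene with the lowest ratio. Each is the RefSeq window of 300 bases on GRCm38.p6, from 250 bases before the transcription start to 50 after it, written 5′ to 3′ on the strand of the gene: Psmb5 at chr14:54617946-54618245 on the minus strand, Psmb6 at chr11:70525107-70525406 on the plus strand, Psmd14 at chr2:61711444-61711743 on the plus strand and Psmb10 at chr8:105938343-105938642 on the minus strand. Capitals mark matches to TGACNNNGC, the core of the antioxidant response element, and to CCAAT, read on either strand (ATTGG when reversed).
Psmb5: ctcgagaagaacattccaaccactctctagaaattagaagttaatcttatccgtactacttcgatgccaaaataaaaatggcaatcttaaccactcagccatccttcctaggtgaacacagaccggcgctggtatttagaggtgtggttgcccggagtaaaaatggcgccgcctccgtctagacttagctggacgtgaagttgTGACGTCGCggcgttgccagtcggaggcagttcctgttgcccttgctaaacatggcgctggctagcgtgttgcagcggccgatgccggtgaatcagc
Psmb6: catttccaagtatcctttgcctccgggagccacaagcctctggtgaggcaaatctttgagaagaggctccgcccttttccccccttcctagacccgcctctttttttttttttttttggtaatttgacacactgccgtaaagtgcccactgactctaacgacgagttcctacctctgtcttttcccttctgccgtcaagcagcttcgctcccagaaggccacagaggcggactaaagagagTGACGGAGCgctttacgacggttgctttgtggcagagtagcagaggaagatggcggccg
Psmd14: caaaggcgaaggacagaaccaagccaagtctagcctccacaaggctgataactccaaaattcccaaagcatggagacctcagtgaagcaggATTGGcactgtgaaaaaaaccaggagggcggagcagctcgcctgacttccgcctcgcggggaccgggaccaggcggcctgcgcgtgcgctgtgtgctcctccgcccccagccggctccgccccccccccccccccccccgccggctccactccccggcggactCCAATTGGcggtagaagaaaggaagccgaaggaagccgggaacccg
Psmb10: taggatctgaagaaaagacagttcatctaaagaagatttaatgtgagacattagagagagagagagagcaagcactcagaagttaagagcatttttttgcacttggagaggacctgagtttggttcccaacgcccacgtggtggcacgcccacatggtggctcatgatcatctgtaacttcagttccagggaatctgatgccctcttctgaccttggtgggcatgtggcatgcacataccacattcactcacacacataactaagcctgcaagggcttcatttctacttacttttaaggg
The element stands 47 bases before the start in Psmb5 and 9 bases before it in Psmb6. Psmd14 holds 3 CCAAT matches, of which a forward and a reversed one overlap just after the start and the third lies 159 bases before it, and Psmb10 holds neither motif in this window. RefSeq promoters were matched for 41 of the 49 members. The antioxidant response element core stood in 6 of these 41 genes (14.6%), namely Psmb5, Psmb6, Psmc6, Psmd12, Psmd9 and Psme4, against 14.0% of the 27025 genes in the table. CCAAT stood in 14 of 41 (34.1%) against 41.1% of all genes. By group it was in 7 of 13 core genes (53.8%), 4 of 14 cap genes (28.6%), 1 of 7 assembly genes (14.3%) and 1 of 6 activator and inhibitor genes (16.7%). Psmc3ip also held it. The core genes Psmb1, Psmb2 and Psmb7 were among those without a matched promoter. A match is a string of letters and shows no binding.

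Depth is counted in UMIs (molecular identifiers that mark single captured RNA molecules), of which CD had 6055886. The cell filter asked for 500 detected genes or more and for less than 10% mitochondrial (mt-) UMIs, which kept all 609 CD cells and 553 Repop D5 cells with 11037921 UMIs. The median cell had 5982 UMIs in CD and 16226 in Repop D5, and the libraries shared 1 cell barcode. UMIs were summed over the retained cells of a library and scaled to a common total (CPM), with no division by gene length. The libraries also differed in their makeup. Summed markers of microglia stood at 27125 CPM in CD against 11615 in Repop D5 with none of 10 at 0, those of border macrophages at 1503 and 333 CPM, of neutrophils at 13160 and 2104 CPM, of red blood cells at 1482 and 2.54 CPM, of S phase at 275 and 1218 CPM and of G2 and M phase at 47.6 and 1470 CPM. Their part in the values below was not tested. A second set of cells, those outside cluster 2 (led by border macrophage genes) and cluster 10 (led by neutrophil genes), was therefore used beside the first. It held 429 CD and 546 Repop D5 cells, with border macrophage markers at 562 and 334 CPM, neutrophil markers at 2370 and 846 CPM and red blood cell markers at 2787 and 2.46 CPM. Each group being 1 library of pooled mice, no test between groups can be made and the spread between mice is unknown, and library and treatment cannot be told apart. The 95% intervals given are exact and cover counting error only.

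Proteasome RNA as a whole made up more of the Repop D5 library. The 48 proteasome genes summed to 4477 CPM in CD against 7351 CPM in Repop D5, for which is 1.64 times as much (95% interval 1.62 to 1.66). Outside clusters 2 and 10 the factor was 1.57 (1.54 to 1.60). A gene was measured if it had at least 10 CPM in 1 library, and it was counted as higher or lower in Repop D5 if its ratio was at least 1.5, or at most the inverse, with an interval clear of 1. Of the 49 members 47 were measured, and 28 of them (59.6%) were higher, 0 lower and 19 neither. The background over all 8463 measured genes was 16.8% higher and 42.1% lower. Medians of the log2 ratio were 0.66 for the 47 members and -0.38 for all measured genes. Outside clusters 2 and 10, 24 members (51.1%) were higher and 0 lower, against 17.1% higher and 40.2% lower of 8436 genes, with medians of 0.59 and -0.36. The 2 members below the minimum are tissue forms: Psma8, the testis form of Psma7, had 2.81 CPM in CD against 4.89 in Repop D5, and Psmb11, the thymus form of Psmb5, had 1 UMI in CD and 2 in Repop D5.

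**Figure D1:**
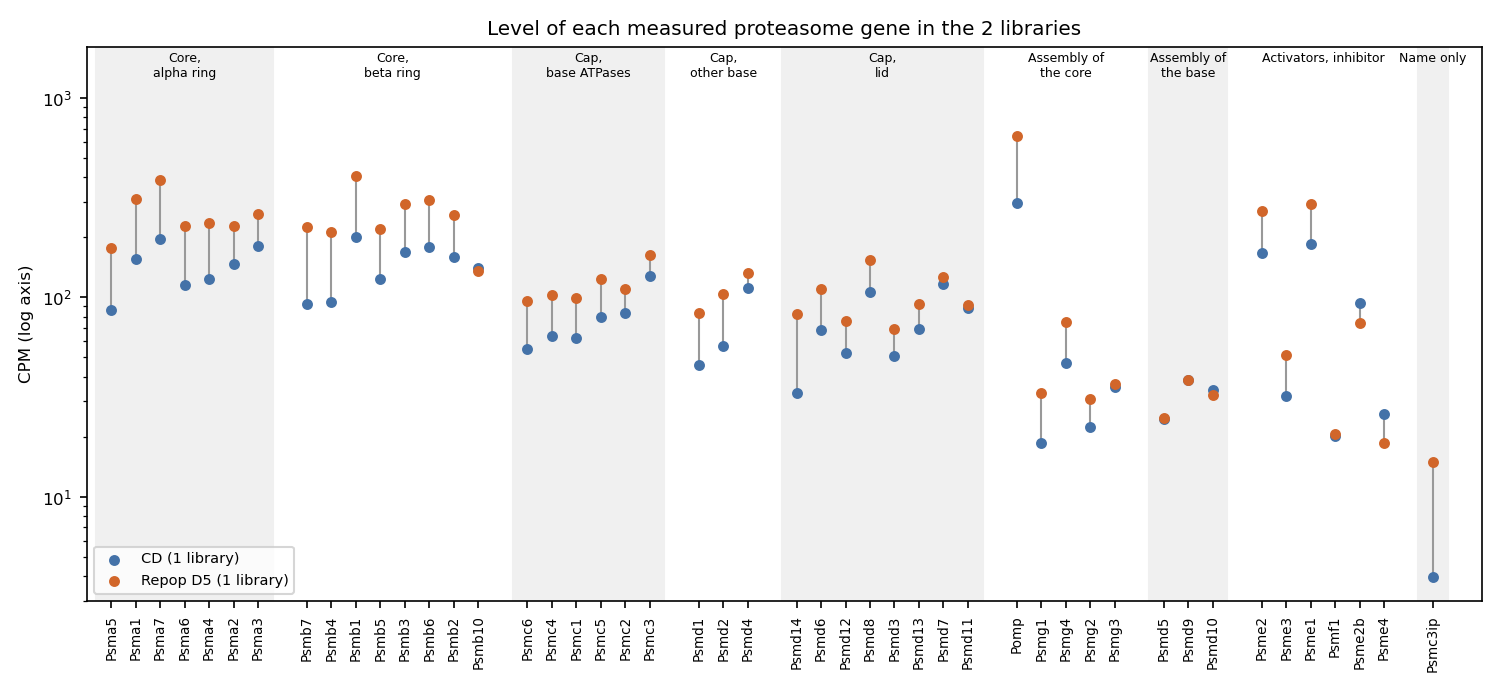
Level of the 47 measured members in each library, in CPM on a log axis, with CD in blue and Repop D5 in orange, a grey line joining the 2 values of a gene, and genes grouped by role. Every alpha ring gene and every beta ring gene except Psmb10 stands higher in Repop D5, while the 3 chaperones of the base have nearly the same level in both.

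The difference was not even across the machine. By median, core genes had the largest ratios, with 13 of 15 measured higher and a median log2 ratio of 0.92. Cap genes followed, with 8 of 17 higher and a median of 0.53, then activators and the inhibitor, with 3 of 6 and 0.35, and assembly genes, with 3 of 8 and 0.25. Summed by group, the core went from 2166 to 3888 CPM (ratio 1.79, 1.76 to 1.83) and the cap from 1270 to 1818 CPM (1.43, 1.39 to 1.47), so the interval of the core lay above that of the cap. The activators and inhibitor summed to a ratio of 1.39 (1.34 to 1.45). The assembly genes, last by median, summed to a ratio of 1.77 (1.70 to 1.84), level with the core, a sum in which Pomp holds most of the UMIs. The order of core and cap held outside clusters 2 and 10, at 1.72 (1.67 to 1.76) for the core and 1.30 (1.26 to 1.35) for the cap, where 12 core genes and 5 cap genes were higher.

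The makeup of proteasome RNA does not depend on how the libraries are scaled to each other. Of all proteasome UMIs, the core took 48.4% in CD (47.8 to 49.0) and 52.9% in Repop D5 (52.5 to 53.2). The cap took 28.4% (27.8 to 28.9) and 24.7% (24.4 to 25.0), and the activators and inhibitor 11.7% (11.3 to 12.1) and 9.92% (9.72 to 10.1). Assembly genes took 11.6% (11.2 to 11.9) and 12.5% (12.2 to 12.7), but this rests on Pomp: without the most abundant gene of each group the share was 6.02% in CD and 4.64% in Repop D5. Outside clusters 2 and 10 the core took 48.4% and 52.9% and the cap 29.8% and 24.7%. Relative to the core, then, Repop D5 had less RNA of the cap genes counted than CD. The cap sum leaves out Sem1, whose ratio of 1.80 (1.71 to 1.89) was close to that of the core. Counting it as cap would narrow the gap.

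In the alpha ring, which forms the gate and the docking surface for the cap, 6 of 7 measured genes were higher. Psma7 (ENSMUSG00000027566, chromosome 2, 180036374 to 180042433, minus strand, mm10), the alpha gene with the most UMIs, had 197 CPM in CD against 388 CPM in Repop D5, for a ratio of 1.97 (1.85 to 2.11). Psma5 (ENSMUSG00000068749, chromosome 3, 108256926 to 108279974, plus strand), the alpha gene with the largest ratio, had 85.9 and 176 CPM, for a ratio of 2.05 (1.86 to 2.27). Psma1 (ENSMUSG00000030751, chromosome 7, 114264606 to 114276118, minus strand) had 156 and 310 CPM, for a ratio of 1.99 (1.86 to 2.15). These 3 genes, with Psma6 (1.97) and Psma4 (1.90), had nearly the same ratio, and their intervals overlapped. Psma2 (1.55, 1.44 to 1.68) and Psma3 (1.45, 1.36 to 1.56), which have fixed places in the same ring, had intervals below those of the other 5. Psma3 had 180 CPM in CD against 261 CPM in Repop D5. A processed pseudogene that is not among the counted genes, Gm13835, matches 685 bases of a Psma3 transcript at 100% identity, so its count is uncertain, and Psma2 was neither outside clusters 2 and 10 (1.48, 1.34 to 1.63). The 7 alpha genes spanned 85.9 to 197 CPM in CD against 176 to 388 CPM in Repop D5, with Psma5 lowest and Psma7 highest in both.

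In the beta ring 7 of 8 measured genes were higher. Psmb7 (ENSMUSG00000026750, chromosome 2, 38588036 to 38644087, minus strand), the trypsin-like catalytic subunit, had 93.0 CPM in CD against 226 CPM in Repop D5, for a ratio of 2.43 (2.22 to 2.67), the largest in the core. It shares 405 exon bases with Nek6 on the opposite strand, which had 53.7 and 30.6 CPM, the opposite direction. Psmb4, a structural ring subunit, had 94.9 and 213 CPM (2.25, 2.05 to 2.46). Psmb1 (ENSMUSG00000014769, chromosome 17, 15475021 to 15499751, minus strand), another structural subunit and the core gene with the most UMIs, had 201 and 407 CPM, for a ratio of 2.03 (1.91 to 2.17). The other catalytic genes had smaller ratios than Psmb7. Psmb5 (ENSMUSG00000022193, chromosome 14, 54614119 to 54618022, minus strand), the chymotrypsin-like subunit, had 124 and 219 CPM (1.77, 1.63 to 1.92). Psmb6 (ENSMUSG00000018286, chromosome 11, 70525367 to 70527858, plus strand), the caspase-like subunit, had 179 and 306 CPM (1.71, 1.59 to 1.83). Psmb3 (1.74) and Psmb2 (1.61), which complete the ring, were also higher. Psmb5 and Psmb3 have near-identical pseudogenes, and for Psmb3 the counted one, Gm4950, had 67.9 and 75.9 CPM.

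Psmb10 (ENSMUSG00000031897, chromosome 8, 105935735 to 105938444, minus strand), which takes the place of Psmb7 in the immunoproteasome, was the exception in the core. It had 140 CPM in CD against 135 CPM in Repop D5, for a ratio of 0.961 (0.883 to 1.05), which was 0.871 (0.786 to 0.966) outside clusters 2 and 10. A trimmed-mean scaling put its ratio at 1.32 and totals without mt- and ribosomal protein genes at 1.16, so its direction depends on the scaling, while its place below Psmb7 does not. Of the UMIs of this pair, Psmb10 made up 60.2% in CD (57.5 to 62.7) and 37.4% in Repop D5 (35.9 to 38.9), with the same 60.2% and 37.4% outside clusters 2 and 10. The order of the pair was thus turned between the libraries. Summed over each library, the other 2 inducible subunits, which are not members, gave smaller differences of the same direction. Psmb8 made up 66.3% (64.2 to 68.2) and 57.7% (56.4 to 59.0) of Psmb8 and Psmb5 UMIs, and Psmb9 31.5% (29.3 to 33.9) and 20.3% (19.1 to 21.5) of Psmb9 and Psmb6 UMIs. Their own levels were 243 and 298 CPM for Psmb8 and 82.6 and 77.8 CPM for Psmb9, both neither.

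**Figure D2:**
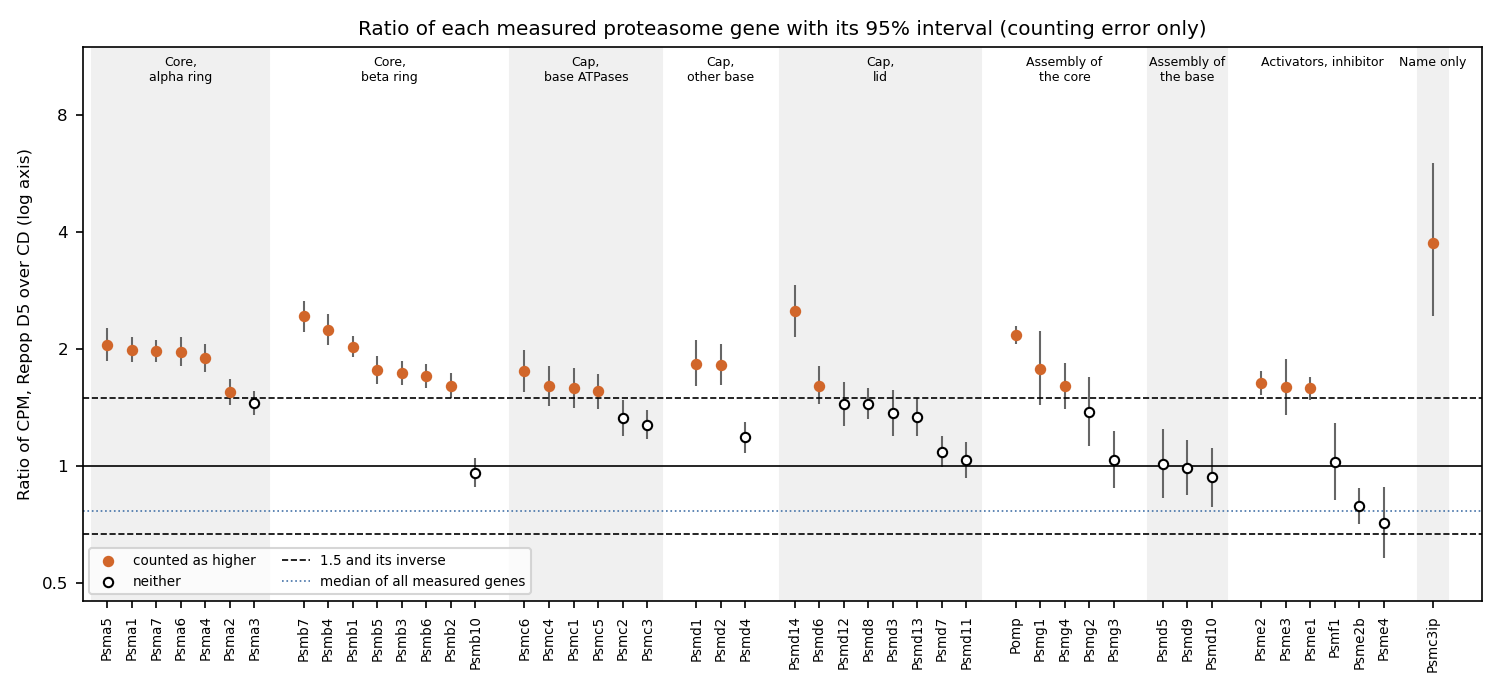
Ratio of CPM in Repop D5 over CD for the 47 measured members, on a log axis, with 95% intervals that cover counting error only, filled points for genes counted as higher, dashed lines at 1.5 and its inverse and a dotted line at the median of all measured genes. At full depth Psmd14 and Psmb7 have the largest ratios of the proteasome genes, 2.50 and 2.43, and Psme4 the smallest, 0.715. In 1 random draw of cells thinned to 1 depth, with no intervals given, Psmd14 is at 1.66 and Psme4 at 1.18.

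Within the cap, 6 of 9 base genes and 2 of 8 lid genes were higher, but outside clusters 2 and 10 the counts were 3 of 9 and 2 of 8, so the gap between base and lid depends on the cells taken. The base summed to a ratio of 1.48 (1.43 to 1.53) and the lid to 1.37 (1.32 to 1.43). The lid sum leaves out Sem1, which had more UMIs than any lid gene counted (334 and 601 CPM, 1.80, 1.71 to 1.89). The order of base and lid sums therefore depends on leaving it out. Of the 6 ATPases that unfold substrates, 4 were higher. Psmc6 (ENSMUSG00000021832, chromosome 14, 45329788 to 45349705, plus strand) had 54.8 CPM in CD against 96.1 CPM in Repop D5, for a ratio of 1.75 (1.55 to 1.99). Psmc4 had 63.7 and 102 CPM (1.61, 1.43 to 1.81), and Psmc1 (1.59) and Psmc5 (1.56) were close to it. Psmc3, the ATPase with the most UMIs, had 128 and 164 CPM (1.28, 1.18 to 1.39), and Psmc2 had 83.1 and 110 CPM (1.33, 1.20 to 1.48). Of the 4 calls, those of Psmc4, Psmc1 and Psmc5 sit just above the threshold, and outside clusters 2 and 10 only Psmc6 kept its call (1.59, 1.36 to 1.87), with Psmc4 at 1.34, Psmc1 at 1.47 and Psmc5 at 1.44. The scaffolds of the base, Psmd1 (45.6 and 83.7 CPM, ratio 1.84, 1.60 to 2.11) and Psmd2 (57.0 and 104 CPM, 1.82, 1.61 to 2.06), were higher in both sets of cells. Psmd4, the ubiquitin receptor of the base, had 112 and 132 CPM (1.19, 1.08 to 1.30).

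In the lid, Psmd14 had the largest ratio, by a margin that was smaller in 1 random draw of cells thinned to 1 depth. Psmd14 (ENSMUSG00000026914, chromosome 2, 61711694 to 61800376, plus strand), the deubiquitinase that removes ubiquitin chains as the substrate enters, had 33.0 CPM in CD against 82.7 CPM in Repop D5, for a ratio of 2.50 (2.15 to 2.93), and 36.9 and 83.0 CPM (2.25, 1.85 to 2.75) outside clusters 2 and 10. In the thinned draw the ratio of Psmd14 was 1.66, still counted as higher but near the 1.47 of Psmd12 and below the 1.81 of Psmd1. No interval is given for the values of that draw, so the size of the drop is uncertain. Psmd14 was the lid gene with the lowest level in CD. Psmd7, which pairs with Psmd14 in the assembled lid, had 116 and 127 CPM, for a ratio of 1.09 (0.995 to 1.20), and at full depth the intervals of these partners did not overlap. Psmd6, a scaffold subunit, was the only other lid member counted as higher (68.2 and 110 CPM, 1.61, 1.44 to 1.81). The scaffold subunits Psmd8 and Psmd12 (both 1.45), Psmd3 (1.37) and Psmd13 (1.34) lay under the threshold with intervals above 1. Psmd11, another scaffold subunit, had 88.5 and 91.7 CPM (1.04, 0.932 to 1.15), and a pseudogene outside the counted genes matches 1269 bases of it. The lid members together, without Sem1, took 13.1% of proteasome UMIs in CD (12.7 to 13.5) and 10.9% in Repop D5 (10.7 to 11.1).

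Among the assembly genes, 3 of 5 chaperones of the core and 0 of 3 chaperones of the base were higher. Pomp (ENSMUSG00000029649, chromosome 5, 147860461 to 147876456, plus strand), which joins the half-built cores and is consumed by the new particle, had the most UMIs of all members. It had 297 CPM in CD against 645 CPM in Repop D5, for a ratio of 2.18 (2.07 to 2.29). Psmg1 (18.5 and 33.0 CPM, 1.78, 1.44 to 2.22) and Psmg4 (46.9 and 75.4 CPM, 1.61, 1.40 to 1.85), chaperones of the alpha ring, were also higher. Their partners Psmg2 (22.3 and 30.7 CPM, 1.38, 1.13 to 1.69) and Psmg3 (35.3 and 36.7 CPM, 1.04, 0.878 to 1.23) were neither, although Psmg1 works as a pair with Psmg2 and Psmg3 as a pair with Psmg4. The 5 core chaperones summed to 420 and 821 CPM, for a ratio of 1.96 (1.87 to 2.04), which rests on Pomp: the other 4 summed to 123 and 176 CPM, with a ratio of 1.43 (1.31 to 1.56). The 3 chaperones of the cap's base had nearly the same level in both libraries. Psmd5 had 24.6 and 24.9 CPM, Psmd9 38.6 and 38.2 CPM and Psmd10, also known as gankyrin, 34.3 and 32.2 CPM. Their sum went from 97.6 to 95.3 CPM, for a ratio of 0.977 (0.882 to 1.08), which a scaling that raises every gene would put above 1. As a share of proteasome UMIs, which no scaling moves, they took 2.18% in CD (2.01 to 2.36) and 1.30% in Repop D5 (1.22 to 1.38), while the core chaperones took 9.37% (9.03 to 9.72) and 11.2% (10.9 to 11.4). Without Pomp, the core chaperones took 2.75% (2.56 to 2.95) and 2.39% (2.29 to 2.50), the same direction as those of the base.

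Among the activators, which open the core gate without ATP, the subunits of the interferon-inducible PA28 ring were higher. Psme1 had 185 CPM in CD against 293 CPM in Repop D5 (1.58, 1.48 to 1.70), and Psme2 166 and 272 CPM (1.63, 1.52 to 1.76). Psme2b, a copy of Psme2 with 99.4% identity over 794 bases, had 93.6 and 73.9 CPM (0.790, 0.708 to 0.880), and reads of the 2 cannot be fully told apart. Their sum had 260 and 346 CPM, for a ratio of 1.33 with an interval that ended at 1.41, under the threshold, so the call of Psme2 depends on how the counting split them. Psme3, the nuclear PA28 gamma, had 32.0 and 51.2 CPM (1.60, 1.36 to 1.89), and 27.5 and 51.3 CPM (1.87, 1.49 to 2.37) outside clusters 2 and 10. Psme4, the large nuclear activator PA200, had 26.1 and 18.7 CPM (0.715, 0.579 to 0.886), the lowest ratio at full depth. That ratio was 0.99 at equal weight per cell, still below 1. It rose above 1 only in 1 random draw of cells thinned to 1 depth (1.18, no interval given). Psmf1, which encodes the inhibitor PI31, had 20.1 and 20.7 CPM (1.03, 0.819 to 1.29). Psmc3ip, which is no proteasome gene, had 3.96 and 14.9 CPM (3.75, 2.43 to 6.02), on 24 UMIs in CD, and a ratio of 2.38 with cells thinned to 1 depth.

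Just above the threshold stood Psma2 at 1.55 and Psmc5 at 1.56, and just below it Psma3, Psmd8 and Psmd12 at 1.45, so the split between called and uncalled genes is one of degree there. The order of levels among members was much the same in both libraries (Spearman's rho 0.95 over 47 members, a description across genes, which are not independent replicates). There were 15 members higher in each set of cells and under each scaling tried, namely Psma1, Psma4, Psma5, Psma6, Psma7, Psmb1, Psmb4, Psmb5, Psmb7, Psmd1, Psmd14, Pomp, Psme2, Psme3 and Psmc3ip. No such count was made over all genes. Psma4, Psma5, Psmc1, Psmd1, Psmd2 and Pomp also share near-identical stretches with other genes, which makes their counts less certain. Among the 27 measured members with neither such copies nor exons shared with another gene, 16 were higher and 0 lower.

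Most cells of Repop D5 held a larger share of proteasome RNA than the typical cell of CD. Of a cell's UMIs, proteasome genes made up a median of 0.453% in CD, with a lowest of 0.0563% and a highest of 0.945%. In Repop D5 the median was 0.712%, the lowest 0.246% and the highest 1.16%. The ranges of single cells overlapped, but 517 of 553 Repop D5 cells (93.5%) lay above the CD median and 21 of 609 CD cells (3.45%) above the Repop D5 median. Deep and shallow cells gave the same order. Among cells with 5000 to under 10000 UMIs the median was 0.457% in 178 CD cells and 0.603% in 97 Repop D5 cells, and among cells with 20000 or more it was 0.427% in 79 and 0.746% in 217. Within CD the share was smaller in the deeper cells, and within Repop D5 it was larger in cells above 20000 UMIs than in those of 5000 to 10000. With every cell thinned to 3000 UMIs, which left out 10 CD cells, the median cell held 11 different proteasome member genes in CD and 15 in Repop D5. A Psmb7 UMI was then found in 24.0% of 599 CD cells (20.7 to 27.7) against 47.7% of 553 Repop D5 cells (43.5 to 52.0), and before thinning in 50.9% and 92.0%. A Psmd14 UMI was found in 10.9% (8.48 to 13.6) and 20.6% (17.3 to 24.2), and before thinning in 25.9% and 68.0%. Every cell type uses the proteasome, so no cell type gives a background for these shares.

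**Figure D3:**
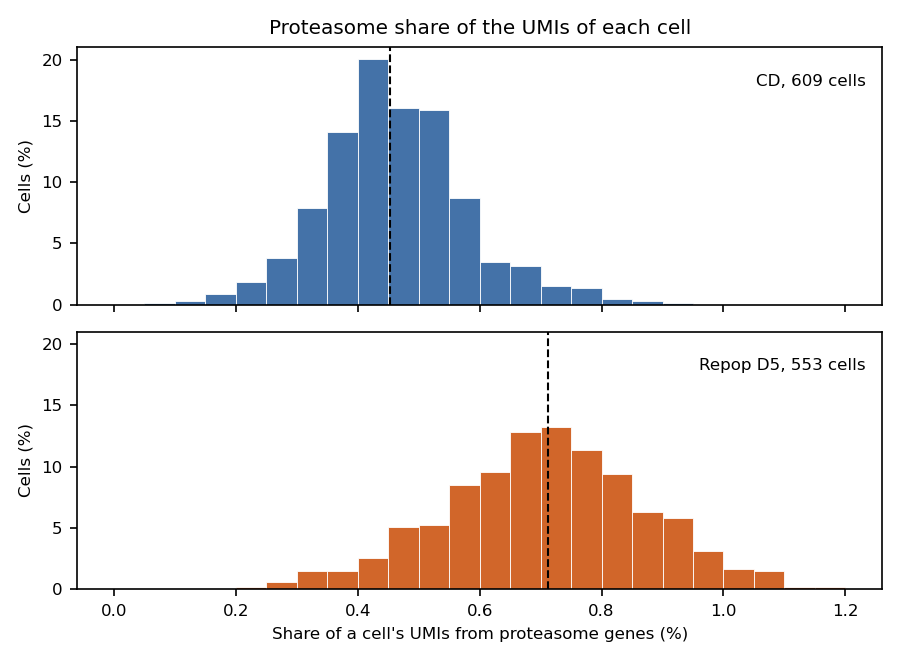
Share of each cell's UMIs that comes from proteasome genes, in percent, as the percent of cells per bin of 0.05, for 609 CD cells above and 553 Repop D5 cells below, with a dashed line at the median. The Repop D5 cells centre on 0.712% and the CD cells on 0.453%, with an overlap between them.

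Clustering used all retained cells and left out the member genes, Psmb8 and Psmb9, so that the clusters could be read against these genes. All clusters of at least 50 cells were mostly of 1 library and could reflect the library as much as a kind of cell, so they go by number. Clusters 0, 2, 3 and 6 held CD cells and clusters 1, 4, 5, 7, 8 and 9 held Repop D5 cells, apart from 1 Repop D5 cell in cluster 0, 2 in cluster 6, 3 CD cells in cluster 4 and 7 in cluster 7. Proteasome genes summed to 4322 to 5013 CPM in the CD clusters and 5481 to 7817 CPM in the Repop D5 clusters. Every Repop D5 cluster was thus above every CD cluster in this sum. The same was true of 15 single members, among them Psma7, Psmb1, Psmb7, Pomp and Psme1, while 34 overlapped. How many of all measured genes did so was not counted, so the number has no background beside it. Within CD, cluster 6, led by the immediate early genes Jun, Egr1 and Fosb, was highest at 5013 CPM and the border macrophage-led cluster 2 was lowest at 4322 CPM.

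Within Repop D5 the levels varied with cluster. Cluster 1 (led by Ch25h, Ass1 and Nes) held 7817 CPM, cluster 5 (led by S phase genes such as Rrm2 and Mcm6) 7773 CPM and cluster 4 (led by mitotic genes such as Cenpf and Top2a) 7575 CPM. Cluster 9 (led by the cytokine genes Tnf, Il1a and Il1b) held 6783 CPM and cluster 7 (led by the monocyte markers Plac8 and Napsa and by interferon response genes such as Ifit1 and Isg15) 6744 CPM. Cluster 8, with the fewest S phase and G2 and M phase UMIs among the Repop D5 clusters (401 and 442 CPM for the marker lists), was lowest at 5481 CPM. In cluster 1 the same lists stood at 1096 and 534 CPM, in cluster 5 at 1602 and 1362 CPM and in cluster 4 at 1391 and 3320 CPM. They stood at 1162 and 1041 CPM in cluster 9 and at 924 and 671 CPM in cluster 7. The part of the cell cycle in the proteasome levels was not tested. Cells of cluster 8 also had the fewest UMIs of the Repop D5 clusters, with a median of 9497, and the part of depth was not tested.

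Of the 47 measured members, 42 had their lowest level among Repop D5 clusters in cluster 8. The same count was not made over all measured genes, so this is not shown to be particular to the members. Psmd14 had 41.1 CPM there against 73.0 to 96.4 CPM in the other 5 Repop D5 clusters, and Psmb2 137 against 210 to 289 CPM. These levels lay inside the range of the CD clusters for Psmd14 and below it for Psmb2. A few members stayed high in cluster 8. Psmb1 had 446 CPM there, the highest of all clusters, against 400 to 416 CPM in the other Repop D5 clusters and 192 to 218 CPM in the CD clusters. Pomp had 592 CPM there, against 589 to 688 CPM in the others and 285 to 353 CPM in CD, and Psme1 334 CPM, second to the 356 CPM of cluster 7. Cluster 8 thus had proteasome RNA with 21.8% from cap genes, the lowest of all 10 clusters, where the CD clusters had 26.8 to 30.5% and the other Repop D5 clusters 23.3 to 25.5%. The core share was 52.0 to 53.4% in the 6 Repop D5 clusters and 47.6 to 49.0% in the 4 CD clusters, with no overlap.

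**Figure D4:**
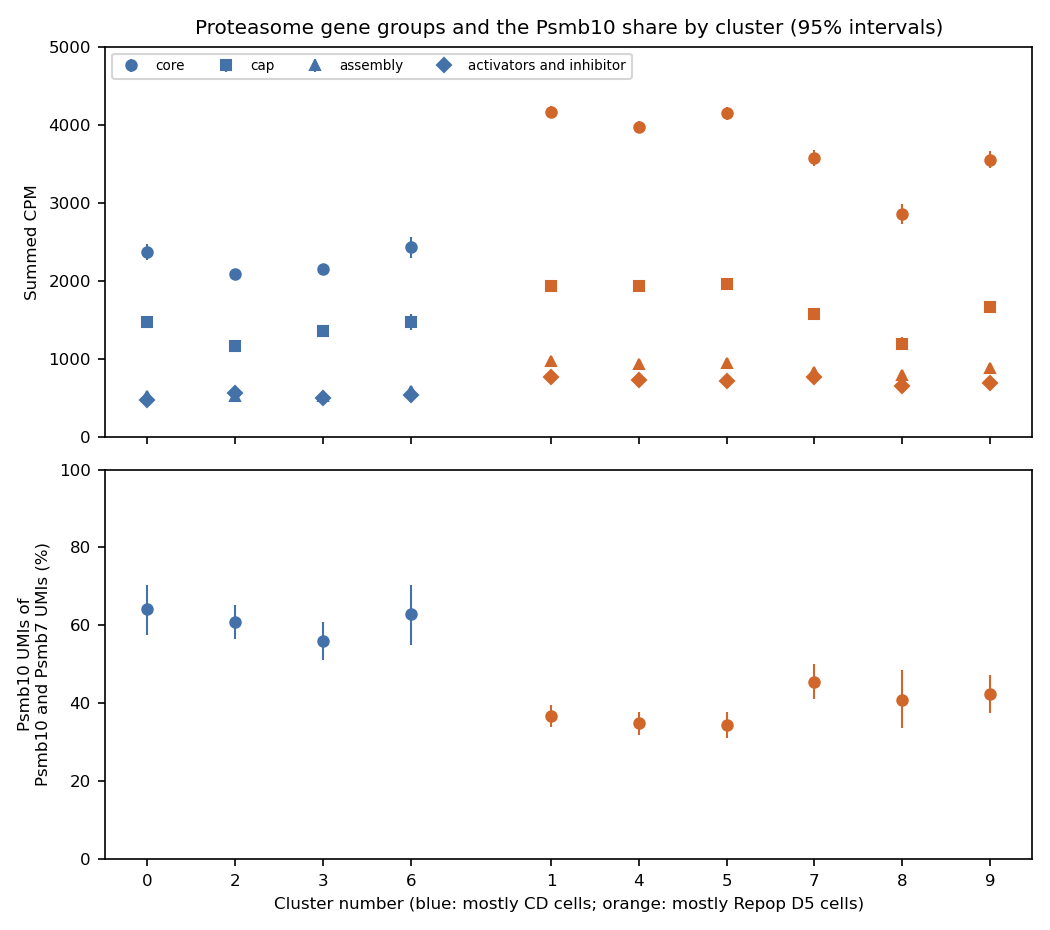
Summed CPM of core, cap, assembly, and activator and inhibitor genes (upper panel) and Psmb10 UMIs as percent of Psmb10 and Psmb7 UMIs (lower panel) in the 10 clusters of at least 50 cells, blue for clusters of mostly CD cells and orange for mostly Repop D5 cells, with 95% intervals for counting error. Core genes lie at 2084 to 2428 CPM in CD clusters and 2851 to 4160 CPM in Repop D5 clusters, and the Psmb10 share at 56.0 to 64.2% and 34.4 to 45.6%.

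The Psmb10 share separated the clusters in the same way. It was 64.2% in cluster 0 (57.5 to 70.4), 63.0% in cluster 6, 60.9% in cluster 2 and 56.0% in cluster 3 (51.1 to 60.9). In Repop D5 it was highest in cluster 7, led by monocyte markers and interferon response genes together, at 45.6% (41.1 to 50.1), followed by cluster 9 at 42.3% and cluster 8 at 40.9%, and lowest in cluster 5 at 34.4% (31.1 to 37.8). Cluster 7 also had the highest Psmb8 level of the 10 clusters (347 CPM) and the highest Psmb9 level (119 CPM), and the part of monocyte RNA in these values was not tested. Psmb10 itself overlapped between libraries, with 131 to 201 CPM in the CD clusters and 110 to 160 CPM in the Repop D5 clusters, while Psmb7 did not, with 84.2 to 118 CPM and 158 to 253 CPM. Unlike the Psmb10 share, the Psmb8 share overlapped, at 63.4 to 70.0% in the CD clusters and 53.4 to 65.4% in the Repop D5 clusters. So did the Psmb9 share, at 25.8 to 35.9% and 16.0 to 33.3%. The Psmb8 level was higher in the Repop D5 clusters, at 277 to 347 CPM against 232 to 262 CPM.

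Genes whose level followed the sum of proteasome genes most closely over the 10 clusters, by Spearman's rho, were the 3 genes Mrpl20 (mitochondrial ribosome), Ldha (lactate dehydrogenase) and Aldoa (aldolase), each with a rho of 1.00. With these 3 included, 16 genes had a rho of 0.99 or more after rounding. Of those tied at 0.99, the 7 with the highest Pearson's r began with Cct7 (chaperonin), Atp5b (ATP synthase) and Eif5a (translation factor). Cox5a (cytochrome oxidase), Pkm and Eno1 (glycolysis) and Mdh2 (malate dehydrogenase) followed. The 10 clusters come from 2 libraries and share their depth, so this ranks likeness and is no test.

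The other genes of the ubiquitin and proteasome pathway went both ways. Of 41 such genes outside the member rule, 10 stood higher (24.4%), 8 lower (19.5%) and 23 neither, beside the background of 16.8% higher and 42.1% lower. Their median log2 ratio of 0.06 compares with the medians of 0.66 for the members and -0.38 for all measured genes. The proteins that bind to the cap were split. Uchl5, a deubiquitinase of the cap, had 38.3 and 72.7 CPM (1.90, 1.64 to 2.20), Usp14, the other one, 45.4 and 76.6 CPM (1.69, 1.47 to 1.94) and Sem1 (listed as Shfm1), a small lid subunit, 334 and 601 CPM (1.80, 1.71 to 1.89). Adrm1, the ubiquitin receptor that anchors Uchl5, had 58.6 and 63.7 CPM (1.09, 0.955 to 1.24). Rps27a, which encodes ubiquitin fused to a ribosomal protein, had 1827 and 4877 CPM (2.67, 2.61 to 2.72), with the reservation that ribosomal protein genes have many pseudogene copies. Ubb, a stress-inducible polyubiquitin gene, was lower, with 1833 and 1163 CPM (0.635, 0.619 to 0.651).

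Among ligases and conjugating enzymes, Ube2c, which serves the anaphase-promoting complex in mitosis, had 3.47 CPM in CD against 183 CPM in Repop D5, for a ratio of 52.9 (34.5 to 85.7). Ube2s, its partner, had 86.5 and 216 CPM (2.50, 2.27 to 2.75), and Uba1, the main ubiquitin-activating enzyme, 52.5 and 93.8 CPM (1.79, 1.57 to 2.03). The list held no NF-Y gene. Of other regulators of proteasome gene transcription and import, Nfe2l1 was neither higher nor lower, and Nfe2l2 and Akirin2 were lower. The log2 ratio of Nfe2l1, -0.41, lay near the median of -0.38 for all measured genes. The part of these regulators in the levels of the members was not tested. Nfe2l1 had 39.0 and 29.2 CPM (0.749, 0.631 to 0.889), Nfe2l2, the related factor of the oxidative stress response, 202 and 107 CPM (0.531, 0.490 to 0.575) and Akirin2, which carries proteasomes into the nucleus, 162 and 59.6 CPM (0.368, 0.333 to 0.407). Zfand5, which binds and activates the proteasome, had 142 and 67.6 CPM (0.477, 0.432 to 0.527).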

How the data were processed

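The authors deposited, for each library, whole-number UMI counts of genes by barcodes, made with Cell Ranger 2.1.0 on mm10, per the submitters' processing notes. The annotation release, the rule for calling cells and the use of strand are not given in the sources used here. The authors' pooled matrix of counts served as an alternative. Its CD counts were identical to the library matrix, and its Repop D5 part held 96.8% of them. Summed counts were scaled to CPM per library. Ratios have exact conditional binomial 95% intervals of 2 Poisson counts, and shares have exact Clopper-Pearson intervals. Medians are of log2 ratios with 1 CPM added. The call and interval code was tested on simulated data. No test between groups was made, since each group is 1 library.

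Cells were clustered in scanpy 1.11.5 (Python 3.11.15) by the Leiden method (leidenalg 0.10.2, resolution 1) on 15 neighbours in 30 components of 2000 variable genes, leaving out the 49 members, Psmb8 and Psmb9. A cluster took the name of a cell type when at least 3 of its 10 leading genes were markers of that type. Doublets were kept, and Scrublet called 10 in CD (1.64%) and 12 in Repop D5 (2.17%). Coordinates, overlaps and near copies (at least 97% identity over 100 bases) are from GENCODE M21, in which 49 of 49 members were found. Promoters are from RefSeq.

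Every member is accounted for. Full values go to those with the highest ratio, the lowest ratio and the most UMIs in each class, and to a few subunits of known role. The members and gene lists were chosen with earlier results of these data known.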

Additional observations from a re-analysis of the deposited data

How the results depend on the processing

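No member counted as higher turned to lower under any alternative run, and the order of the median log2 ratios, core above cap, held in each. Members counted as higher numbered 19 with cells thinned to 1 depth and with clusters at resolution 0.5, 20 with equal weight per cell, 37 with trimmed-mean scaling, 7 with a call at 2 and 16 among the 27 measured members without copies or overlaps. Apart from the cells outside clusters 2 and 10, the share of all genes called was not counted for runs with another cell set, weighting, scaling or threshold. Those numbers of members therefore have no background beside them. Members counted as lower numbered 1 with the stricter cell filter (Psme4) and 2 with the lowest call threshold tried. Trimmed-mean scaling raised every log2 ratio by 0.46 and put the medians of all members, core, cap and assembly at 1.12, 1.37, 0.98 and 0.69. The median of all measured genes was then 0.10. Totals without mt- and ribosomal protein genes raised every log2 ratio by 0.27 and gave 0.93, 1.19, 0.80 and 0.51, with -0.12 for all measured genes. The medians of all members, core and cap were 0.51, 0.81 and 0.30 outside the clusters of other types at resolution 0.5, 0.50, 0.79 and 0.33 with thinned cells, and 0.49, 0.80 and 0.41 with equal weight per cell. The cap median was 0.40 outside clusters 2 and 10. The assembly median was 0.90 with a minimum of 50 CPM, above the 0.53 of the cap. At resolution 0.5 it was 0.31, just above the 0.30 of the cap. The place of assembly below the cap thus did not hold in each run. Among members without copies or overlaps the assembly median was 0.45, and with no minimum the core median was 0.82.

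The core share stayed higher and the cap share lower in Repop D5 than in CD under each alternative run for these shares. Cap shares in CD were 29.8% outside clusters 2 and 10, 29.9% at resolution 0.5 and 29.95% also without cluster 7, a set chosen after seeing the data, and the Repop D5 cap share was 25.1% with the stricter filter. The CD assembly share was 11.0% at resolution 0.5. With Psmd5, Psmd9 and Psmd10 counted as cap, the cap took 30.5% in CD and 26.0% in Repop D5, and assembly 9.37% and 11.2%. Without the most abundant member of each group, the core took 53.6% and 59.6%, the cap 31.1% and 28.3%, and assembly 6.02% and 4.64%. Among members without copies or overlaps, also chosen after seeing the data, the core took 58.3% and 63.9%, the cap 32.2% and 28.7%, and assembly 6.15% and 5.06%, so the direction of the assembly share rests on Pomp. The Psmb10 share was 63.6% in CD at resolution 0.5 and 35.2% in Repop D5 with thinned cells.

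Directions turned only for members not counted as higher or lower. These were Psmb10 (1.32 with trimmed-mean scaling, 1.16 without mt- and ribosomal protein genes), Psmd9, Psmd10, Psme2b, Psmd11, Psmd5, Psmf1, Psmg3 and Psme4 (1.18 with thinned cells). Thinned cells put Psmd14 at 1.66 and Psmc3ip at 2.38. All values with thinned cells in this section come from 1 random draw and are given without intervals. The values without Pomp were added after seeing the data. With 1 library per group, depth limits only the counting error, and the spread between mice is unknown.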
